A study of Mus musculus with 78 samples.

Results

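The genes described here make sterols and isoprenoids, sense sterols, or bring cholesterol into the cell and move it between membranes. The list held 28 genes, of 17097 that an array probe set measured under 1 gene symbol. Of the 28, 25 had such a probe set, and each was represented by its probe set of highest mean over all 78 arrays. Acat2, Pmvk and Srebf1 had none. Testing required a signal over the array median (log2 4.59 to 4.77) on 4 or more arrays, which left 22 of the 28 genes among 11344 tested.

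RNA enriched for endothelium had been flushed out of the left common carotid artery (LCA) and right common carotid artery (RCA) in 39 mice, 1 array per artery. Every mouse, controls included, had the LCA partially ligated, an operation that leaves that artery with low and disturbed flow, and its unligated RCA was the control. Mice received vehicle or atorvastatin, a cholesterol-lowering statin, at 10 mg/kg/day by daily oral dosing from 2 days before surgery. Both treatments were sampled at 12 h, 24 h, 48 h and 2 weeks, with 5 mice per treatment and time, except 4 for atorvastatin at 48 h. Neither strain, sex nor age is given in the sources used here. Flushing enriches endothelium and does not purify it.

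Cells build isoprenoids and cholesterol from acetyl-CoA through the mevalonate pathway, and statins block an early step of it. When membrane sterols are low, the escort protein Scap carries the SREBP transcription factors to the Golgi, where they are cut and released to switch on these genes. When sterols are plentiful, Insig proteins hold Scap in the endoplasmic reticulum. Cholesterol that enters in lipoproteins leaves the lysosome through Npc2 and Npc1.

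Values are deposited log2 signals, so a difference of 1 is a doubling. A difference is LCA minus RCA within a mouse, averaged over both treatments with equal weight unless a treatment is named. Each comes with its standard error (SE) from limma and a p-value adjusted over the 11344 genes by Benjamini-Hochberg, and "called" means an adjusted p under 0.05. Signals of different probe sets were not compared with each other. In RNA pooled from all cells of a flush, fewer cells of a type and less RNA per cell cannot be told apart.

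Of the listed genes, 3 lay too low to test. Hmgcs1, which makes HMG-CoA, was above the array median on 0 of 78 arrays, with values from 2.23 to 3.56. Fdps, which makes farnesyl diphosphate, was above it on 0 arrays, and Tm7sf2, a sterol reductase, on 1. The pathway's early steps were thus measured by Mvk and Mvd only. Mvd and Nsdhl lay near the array medians, above them on 42 and 38 of 78 arrays. Sqle and Lss had means under the array medians (3.77 and 3.45) and were tested through 7 and 4 arrays. Of the 7 arrays for Sqle, 5 were LCA arrays at 48 h, so Sqle passed the filter mainly through the group in which it was high.

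The endothelial markers Pecam1, Cdh5, Tek and Vwf were above the array median on all 78 arrays. At 48 h all 12 macrophage markers, all 6 neutrophil markers tested and all 7 cell cycle genes tested were higher in the LCA, while 7 of 12 endothelial markers were lower and 2 higher. At 2 weeks all 12 macrophage, all 7 smooth muscle and 6 of 7 cell cycle genes tested were higher in the LCA, while 7 of 12 endothelial markers were lower and 3 higher. Of 13 clock genes 10 were lower in the LCA at 48 h and 10 at 2 weeks. Of 9 fibroblast markers 3 were lower at 48 h, and at 2 weeks 4 were higher and 3 lower, while all 4 T cell markers tested were higher at 2 weeks. No thyroid or nerve marker passed the filter on low values. Of the adipocyte and skeletal muscle lists 3 genes and 1 gene were tested, and single arrays stood apart. At 12 h the adipocyte list reached 8.54 in an LCA and 8.19 in an RCA (medians 5.63 and 5.98). At 24 h it reached 7.75 in an LCA and 8.53 in an RCA (medians 4.99 and 4.91). The smooth muscle list reached 7.54 in an RCA at 12 h and 7.02 in an RCA at 24 h (medians 5.28 and 5.08). The adipocyte list reached 9.56 in the RCA of atorvastatin mouse 8 and 8.98 in that of vehicle mouse 3 at 2 weeks (lowest RCA 4.27), and the skeletal muscle list 7.93 in the RCA of atorvastatin mouse 9 at 2 weeks (lowest 3.64). In the LCA of vehicle mouse 2 at 48 h these lists were at 6.76 and 5.42, the highest of the 9 LCAs. Without atorvastatin mouse 8, atorvastatin mouse 9 or vehicle mouse 3, 12, 10 and 10 of the 22 sterol genes were called at 2 weeks, and without vehicle mouse 2, 10 at 48 h, beside 10 and 12 with all mice. The part these changes take in the results below was not tested.

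Between arteries the called genes changed with time. At 12 h Insig1 alone was called. At 24 h Idi1, Lss, Cyp51, Insig1, Insig2, Stard4 and Npc2 were higher in the LCA. At 48 h the enzymes Mvd, Idi1, Fdft1, Sqle, Cyp51, Hsd17b7 and Sc5d were higher while Insig1, Insig2, Stard4, Npc2 and Ggps1 were lower. At 2 weeks Insig1 and Insig2 were still lower, Sc5d and Ebp were lower, and Mvd and Cyp51 were higher.

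**Figure D1:**
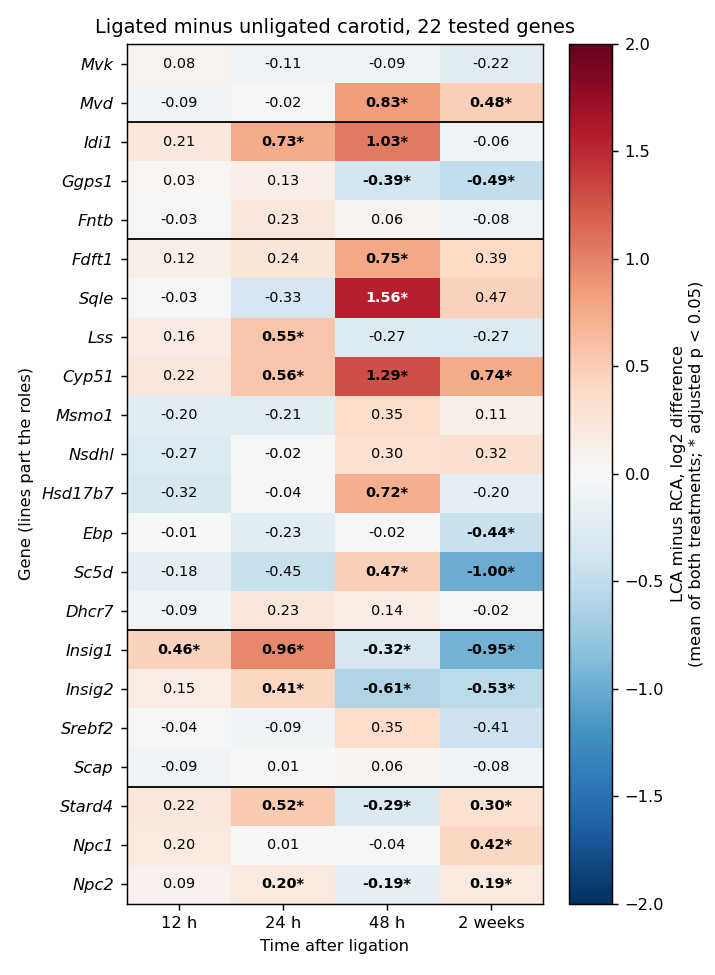
LCA minus RCA difference (log2, colour) of each tested gene, ordered by role down the vertical axis, at the 4 times along the horizontal axis; marks show an adjusted p under 0.05. Insig1 runs from 0.96 at 24 h to -0.95 at 2 weeks, and Sqle reaches 1.56 at 48 h.

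At 12 h, 1 of 22 genes was called higher and 0 lower, beside 3.61% of all tested genes higher and 2.59% lower. By limma, 2 of the 22 had an unadjusted p under 0.05. The called gene was Insig1, which retains Scap in the endoplasmic reticulum and is itself switched on by SREBP. Its LCA level ran from 9.34 to 9.92 (median 9.60) in 10 mice and its RCA level from 8.71 to 9.44 (median 9.20). The groups overlapped slightly, and every mouse had more Insig1 signal in its LCA. The difference was 0.46 (SE 0.12, adjusted p = 0.0108), a 1.37-fold difference, and within mice it ran from 0.02 to 0.68. The lowest mouse was atorvastatin mouse 9, at 0.024.

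At 24 h, 7 of 22 genes were called higher in the LCA and 0 lower, beside 15.7% and 13% of all tested genes. The median difference of the 22 was 0.07, against 0.03 over all tested genes. By limma, 9 of the 22 had an unadjusted p under 0.05.

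In the isoprenoid branch, Idi1 converts isopentenyl diphosphate to its reactive isomer and is a classical SREBP target. Its LCA level at 24 h ran from 7.80 to 9.14 (median 8.66) and its RCA level from 6.97 to 8.50 (median 7.89). The ranges overlapped between mice, but all 10 mice were higher in the LCA, by 0.43 to 1.35. The difference was 0.73 (SE 0.14, adjusted p = 0.000206), or 1.66-fold.

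Among the enzymes that follow squalene, Lss closes the sterol rings and Cyp51 removes the first methyl group from them. Cyp51 ran from 5.93 to 6.65 in the LCA (median 6.34) and from 5.08 to 6.22 in the RCA (median 5.74), and 8 of 10 mice were higher in the LCA. Its difference was 0.56 (SE 0.19, adjusted p = 0.0255). Lss differed by 0.55 (SE 0.20, adjusted p = 0.0407) in 9 of 10 mice, on levels under the array median. The Lss call was lost without vehicle mouse 1, 3 or 5 or atorvastatin mouse 7, 8 or 9 (adjusted p up to 0.128), and the Cyp51 call without vehicle mouse 2 or 5 or atorvastatin mouse 6, 8 or 10 (up to 0.0759). Lss was also not called with no filter on low values, and Cyp51 not with the mean of its probe sets. The other Cyp51 probe sets, above the array median on 0 arrays, gave 0.05 and 0.11.

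Of the sensing genes, the Insig pair was called at 24 h, and Srebf2 and Scap were not. Insig1 lay between 9.08 and 9.74 in the LCA (median 9.38) and between 8.17 and 8.75 in the RCA (median 8.36), with no overlap. Its difference of 0.96 (SE 0.12, adjusted p = 1.2e-07), or 1.95-fold, was present in 10 of 10 mice. Insig2, the second retention protein, lay between 9.18 and 9.88 in the LCA and between 9.03 and 9.45 in the RCA, overlapping over part of their range. It was higher by 0.41 (SE 0.09, adjusted p = 0.00114) in 10 of 10 mice.

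The transport genes called at 24 h were Stard4, a cytosolic sterol carrier, and Npc2, which binds cholesterol in the lysosome. Stard4 lay between 8.35 and 8.98 in the LCA and between 7.95 and 8.44 in the RCA, nearly apart, and was higher by 0.52 (SE 0.11, adjusted p = 0.00047) in 10 of 10 mice. Npc2 was higher by 0.20 (SE 0.07, adjusted p = 0.033) in 9 of 10 mice, a call lost without any 1 of 7 mice, all but vehicle mouse 2 and atorvastatin mice 9 and 10 (adjusted p up to 0.0895). Gapdh signal near the 3' end exceeded that near the 5' end by 4.77 for the LCA and 4.07 for the RCA at 24 h, a gap between arteries that was 4.85 against 4.47 at 12 h and 3.96 against 4.10 at 48 h. The part of this difference along the transcript in the results at 24 h was not tested.

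Levels within each artery were compared between 12 h and 24 h. In the RCA, 3 of 22 genes fell between 12 h and 24 h and 0 rose, while 24.2% of all tested genes changed. Idi1 fell by 0.79 (SE 0.15, adjusted p = 0.000505), from a mean of 8.65 to 7.87. Insig1 fell by 0.78 (SE 0.09, adjusted p = 2.54e-07), from 9.16 to 8.39. Insig2 fell by 0.46 (SE 0.08, adjusted p = 0.000297), from 9.63 to 9.17. All 3 therefore dropped in the unligated artery itself.

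In the LCA the same step was smaller and not called. Idi1 changed by -0.26 (SE 0.19, adjusted p = 0.575), Insig1 by -0.27 (SE 0.13, adjusted p = 0.351) and Insig2 by -0.20 (SE 0.12, adjusted p = 0.501). The change of LCA minus RCA between 12 h and 24 h was called by limma for 0 of 22 genes (0.661% of all tested genes), with 2 at an unadjusted p under 0.05. For Insig1 that change was 0.50 (SE 0.17, adjusted p = 0.133) and for Idi1 0.53 (SE 0.20, adjusted p = 0.207). So a widening of the gap from 12 h to 24 h was not shown.

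The RCA values carry the time of harvest as well as the time since surgery, and the labels do not separate them. Clock genes moved over the same step in the RCA, with 13 of 13 tested changed over the 4 times. Between 12 h and 24 h, 9 of them rose and 4 fell, and 8 of 12 endothelial markers rose. Hour of harvest, time since surgery and the makeup of the flush cannot be told apart for the fall of Idi1, Insig1 and Insig2.

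Fewer changes were called in the RCA after 24 h. Between 24 h and 48 h only Insig1 was called among the 22 there (1.12% of all genes), rising by 0.51 (SE 0.09, adjusted p = 0.00372), and 7 had an unadjusted p under 0.05. Sc5d changed by -0.55 over that step (SE 0.19, adjusted p = 0.174). Between 48 h and 2 weeks 0 of 22 were called there by limma (0.458% of all genes), with 3 at an unadjusted p under 0.05. Over the 4 times together the RCA F test called 6 of 22 genes, Idi1, Ggps1, Sc5d, Insig1, Insig2 and Stard4, beside 37.4% of all tested genes. The LCA F test called 16 of 22, beside 69% of all tested genes.

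**Figure D2:**
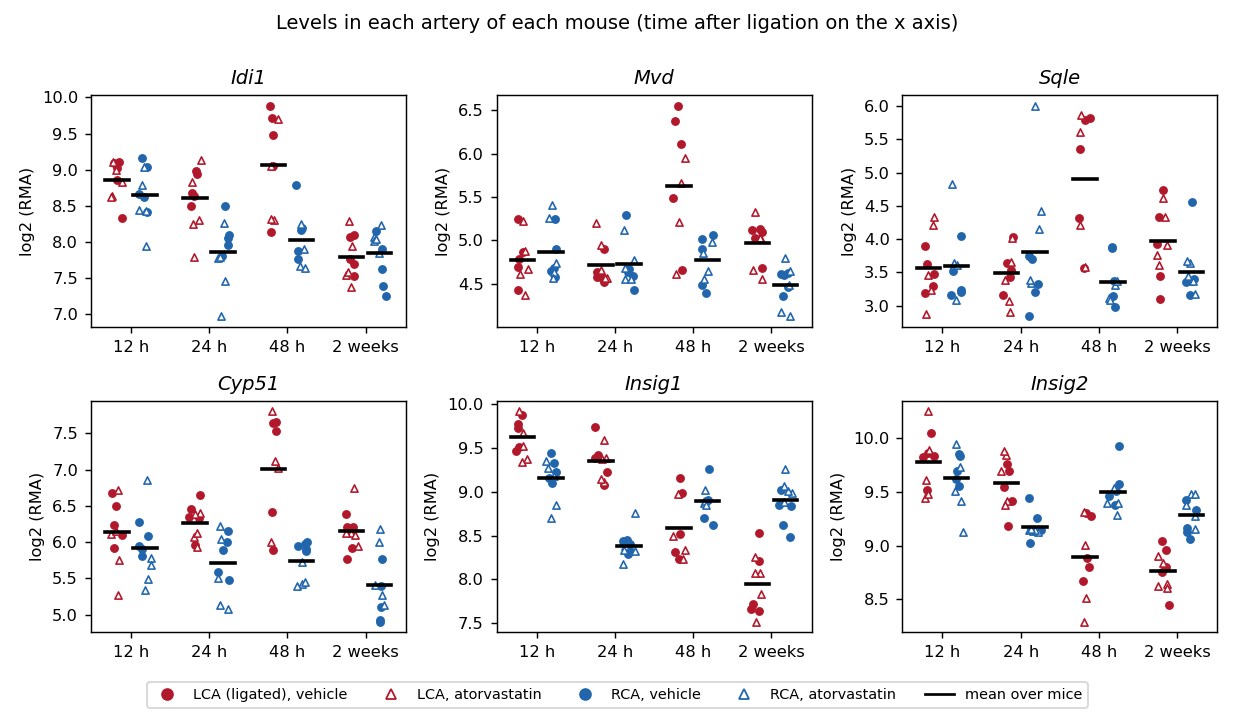
Log2 signal of 6 genes (vertical axis) in each mouse at 12 h, 24 h, 48 h and 2 weeks, LCA and RCA side by side; filled circles are vehicle mice, open triangles atorvastatin mice and bars the mean of each artery and time. Insig1 in the RCA falls from a mean of 9.16 to 8.39 between 12 h and 24 h, and Sqle in the LCA at 48 h spreads from 3.57 to 5.87.

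At 48 h, 7 of 22 genes were called higher in the LCA and 5 lower, beside 26.6% and 23.1% of all tested genes, so the counts themselves were not far from those of genes in general. The 7 include Sqle, which passed the filter mainly through LCA arrays at 48 h and is counted as a description only. The median difference of the 22 was 0.10, against -0.00 over all tested genes. The genes called higher were the enzymes Mvd, Idi1, Fdft1, Sqle, Cyp51, Hsd17b7 and Sc5d, and those called lower were the enzyme Ggps1, the Insig pair, Stard4 and Npc2.

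The upstream sequences of 5 of these genes are shown to let the position of the boxes be compared. They were chosen after the values were seen, from the 9 genes called at 48 h with an entry in the RefSeq promoter table (build GRCm38.p6); Ggps1, Sc5d, Insig2 and Npc2 are the ones not shown. All 9 hold a CCAAT box in the window searched below. Each is the 250 bases before the annotated start on the gene's own strand, 5' to 3', with capitals marking CCAAT or its reverse complement ATTGG (the NF-Y box) and CACGTG (the E-box). Coordinates are chr8:122443423-122443672 (minus strand) for Mvd, chr13:8885356-8885605 (plus) for Idi1, chr5:4104698-4104947 (minus) for Cyp51, chr1:169969206-169969455 (minus) for Hsd17b7 and chr5:28071162-28071411 (plus) for Insig1.
Mvd: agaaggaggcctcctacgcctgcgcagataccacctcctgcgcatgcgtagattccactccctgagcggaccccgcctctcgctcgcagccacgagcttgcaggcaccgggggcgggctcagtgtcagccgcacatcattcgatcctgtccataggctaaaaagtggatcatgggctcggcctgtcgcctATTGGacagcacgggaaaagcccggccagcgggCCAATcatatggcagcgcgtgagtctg
Idi1: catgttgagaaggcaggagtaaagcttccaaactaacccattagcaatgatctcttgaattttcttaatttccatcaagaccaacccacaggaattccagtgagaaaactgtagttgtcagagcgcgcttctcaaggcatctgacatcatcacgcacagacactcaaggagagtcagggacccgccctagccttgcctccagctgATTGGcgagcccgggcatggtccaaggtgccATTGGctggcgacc
Cyp51: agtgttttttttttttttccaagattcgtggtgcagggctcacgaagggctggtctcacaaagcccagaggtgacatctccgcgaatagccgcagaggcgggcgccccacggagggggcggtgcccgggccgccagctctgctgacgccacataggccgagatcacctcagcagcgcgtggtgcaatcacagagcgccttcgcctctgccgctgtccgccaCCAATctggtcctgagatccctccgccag
Hsd17b7: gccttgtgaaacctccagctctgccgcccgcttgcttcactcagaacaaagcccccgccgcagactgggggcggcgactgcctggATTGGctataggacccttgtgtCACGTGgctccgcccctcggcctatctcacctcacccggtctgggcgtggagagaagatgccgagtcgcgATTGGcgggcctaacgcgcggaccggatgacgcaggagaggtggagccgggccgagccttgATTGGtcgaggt
Insig1: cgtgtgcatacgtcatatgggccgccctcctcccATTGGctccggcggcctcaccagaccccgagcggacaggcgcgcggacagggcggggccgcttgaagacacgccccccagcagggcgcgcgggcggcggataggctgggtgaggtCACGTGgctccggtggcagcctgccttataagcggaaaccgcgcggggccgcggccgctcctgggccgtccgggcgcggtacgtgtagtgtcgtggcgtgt

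NF-Y is a factor known to act beside SREBP at sterol genes. The box nearest to the start begins 27 bases before it in Mvd, 14 in Idi1, 29 in Cyp51 and 12 in Hsd17b7, while the only box of Insig1 begins 216 bases before it. The E-box begins 143 bases before the start of Hsd17b7 and 101 before that of Insig1. In the table's window of 250 bases before to 50 after the start, searched on both strands, CCAAT was present in 20 of the 23 listed genes with an entry, beside 41.1% of 27025 genes and 37.4% of 32851 promoters. CACGTG was present in 5 of 23 (Hsd17b7, Sc5d, Dhcr7, Insig1 and Scap), beside 8.09% of genes.

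Sterol regulatory elements were searched as TCACNCCAC and as the shorter CACCCCAC. The first was present in Hmgcs1 alone of the 23 (1.24% of all promoters), and the second in Acat2 and Hmgcs1 (2.87% of all promoters). The 2 patterns can overlap in sequence. No called gene with an entry held either set of letters in its window. Fdps, Fdft1, Sqle, Stard4 and Npc1 were not matched to an entry and so were not searched. Sterol elements spelled otherwise were not searched for. These matches describe letters and no binding was measured.

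In the mevalonate pathway, Mvd carries out the last step before the isoprenoid units. At 48 h it ran from 4.62 to 6.55 in the LCA of 9 mice (median 5.66) and from 4.39 to 5.07 in the RCA (median 4.86). The arteries overlapped at the low end of the LCA, and 8 of 9 mice were higher in the LCA. Mvd was higher by 0.83 (SE 0.16, adjusted p = 4.94e-05), or 1.78-fold. Its other probe set, above the array median on 0 arrays, gave 0.12. Mvk, the kinase that phosphorylates mevalonate, differed by -0.09 (SE 0.10, adjusted p = 0.512).

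The isoprenoid genes went in opposite directions. Idi1 lay between 8.14 and 9.88 in the LCA (median 9.06) and between 7.64 and 8.79 in the RCA (median 7.90). It was higher in 8 of 9 mice, by 1.03 on average (SE 0.15, adjusted p = 1.27e-06), or 2.05-fold. Ggps1, which makes geranylgeranyl diphosphate for protein anchoring, was lower in 9 of 9 mice, by -0.11 to -0.60, with a mean of -0.39 (SE 0.08, adjusted p = 8.11e-05). Other probe sets for Ggps1 gave -0.01 and 0.19, so its fall rests on 1 probe set, and the mean over its probe sets was not called. Fntb, a farnesyltransferase subunit, differed by 0.06 (SE 0.12, adjusted p = 0.714).

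Squalene is formed by Fdft1 and oxidised by Sqle, the second rate-limiting enzyme of cholesterol synthesis. Fdft1 lay between 5.63 and 6.68 in the LCA (median 6.16) and between 4.30 and 5.76 in the RCA (median 5.52), and was higher by 0.75 (SE 0.20, adjusted p = 0.00181) in 8 of 9 mice. Sqle lay between 3.57 and 5.87 in the LCA (median 5.36) and between 2.98 and 3.89 in the RCA (median 3.31). It differed by 1.56 (SE 0.22, adjusted p = 5.13e-07), or 2.95-fold, in 9 of 9 mice. Because Sqle entered the test mainly through these LCA arrays, its call is a description only.

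Cyp51 and Hsd17b7, which demethylate and reduce the sterol nucleus, followed. Cyp51 lay between 5.90 and 7.81 in the LCA (median 7.11) and between 5.40 and 6.004 in the RCA (median 5.87), with only the low end of the LCA inside the RCA range. It was higher by 1.29 (SE 0.20, adjusted p = 3.14e-06), or 2.44-fold, in 8 of 9 mice. Other Cyp51 probe sets, on low signals, gave 0.26 and 0.66. Hsd17b7 lay between 4.73 and 6.40 in the LCA and between 4.37 and 5.40 in the RCA, and was higher by 0.72 (SE 0.17, adjusted p = 0.000567), or 1.65-fold, in 8 of 9 mice. The other Hsd17b7 probe sets, above the array median on 0 arrays, gave -0.04 and 0.19.

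The other sterol nucleus enzymes were less clear. Sc5d, a desaturase near the end of the pathway, was higher by 0.47 (SE 0.20, adjusted p = 0.0477) in 8 of 9 mice, but its other probe sets gave -0.31 and 0.01. The call held only without vehicle mouse 4 or atorvastatin mouse 8, and was lost without any other mouse (adjusted p up to 0.149). Msmo1, which removes further methyl groups, differed by 0.35 (SE 0.21, adjusted p = 0.166), and its partner Nsdhl by 0.30 (SE 0.18, adjusted p = 0.165). Lss differed by -0.27 (SE 0.22, adjusted p = 0.313) and Dhcr7, which makes the last reduction to cholesterol, by 0.14 (SE 0.21, adjusted p = 0.601). These intervals do not show that the genes were level between arteries.

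Insig2 was lower in the LCA of 9 of 9 mice at 48 h. It lay between 8.29 and 9.31 in the LCA (median 8.88) and between 9.29 and 9.93 in the RCA (median 9.46), touching only at the ends. The difference was -0.61 (SE 0.10, adjusted p = 6.22e-06), and its 3 probe sets pointed the same way. Insig1 was lower by -0.32 (SE 0.12, adjusted p = 0.0313), but only in 6 of 9 mice, and leaving out vehicle mouse 1 or 5 or atorvastatin mouse 6, 8 or 9 ended that call (adjusted p up to 0.139).

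Srebf2, the SREBP that drives sterol synthesis, differed by 0.35 (SE 0.22, adjusted p = 0.188), and Scap by 0.06 (SE 0.13, adjusted p = 0.719). Stard4 was lower by -0.29 (SE 0.12, adjusted p = 0.0382) in 7 of 9 mice and Npc2 by -0.19 (SE 0.08, adjusted p = 0.0364) in 7 of 9. The Stard4 call was lost without vehicle mouse 1, 2, 3 or 5 or atorvastatin mouse 8 or 9, and its difference shrank to -0.13 without atorvastatin mouse 8 (adjusted p = 0.337). The Npc2 call was lost without vehicle mouse 1 or 3 or atorvastatin mouse 6 or 9 (adjusted p up to 0.174). Other probe sets gave 0.08 and -0.42 for Stard4 and 0.07 for Npc2, and neither gene was called with the mean of its probe sets.

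The spread between mice at 48 h was wide for the same enzymes. Within vehicle mice 1 to 5 the Sqle differences were 1.91, 1.18, 2.46, 0.60 and 1.498, and within atorvastatin mice 6 to 9 they were 2.30, 0.47, 1.13 and 2.49. Idi1 differed by 1.54, 1.28, 2.01, -0.06 and 0.70 in the vehicle mice and by 1.45, 0.62, 0.41 and 1.41 in the atorvastatin mice. Vehicle mouse 4 and atorvastatin mouse 7 were the lowest for Sqle, and vehicle mouse 4 also for Idi1.

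Cyp51 gave 1.68, 0.54, 1.58, -0.11 and 1.74 in the vehicle mice and 2.08, 0.57, 1.62 and 1.67 in the atorvastatin mice. Mvd gave 2.16, 0.59, 1.36, 0.17 and 1.05, then 0.56, -0.37, 0.80 and 1.39. Vehicle mouse 4 and atorvastatin mouse 7 were low in both genes, and vehicle mouse 2 was low in Cyp51. Without vehicle mouse 4 all 12 calls at 48 h were kept and 13 genes were called. Without vehicle mouse 1 or atorvastatin mouse 9, 8 were called, and every loss over the 9 omissions was of Sc5d, Insig1, Stard4 or Npc2.

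Other cells' markers moved in the same mice. The mean level of the neutrophil list ran from 3.89 to 9.65 over the LCAs at 48 h and from 3.51 to 4.13 over the RCAs, and that of the macrophage list from 5.49 to 7.90 and from 3.999 to 6.46. The cell cycle list ran from 5.62 to 9.36 in the LCA and from 5.11 to 7.12 in the RCA, and the endothelial list from 8.71 to 9.46 and from 8.99 to 9.67. Vehicle mouse 4 had an LCA minus RCA value of -0.02 for the neutrophil list, 0.66 for the macrophage list and -0.70 for the cell cycle list. Its neutrophil and macrophage values were each the lowest of the 9 mice. The cell cycle list was also lower in the LCA of atorvastatin mice 7 (-0.31) and 8 (-0.79), while the other 6 mice had 1.69 to 3.63. The part of these cells and of cell division in the enzyme differences was not tested.

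**Figure D3:**
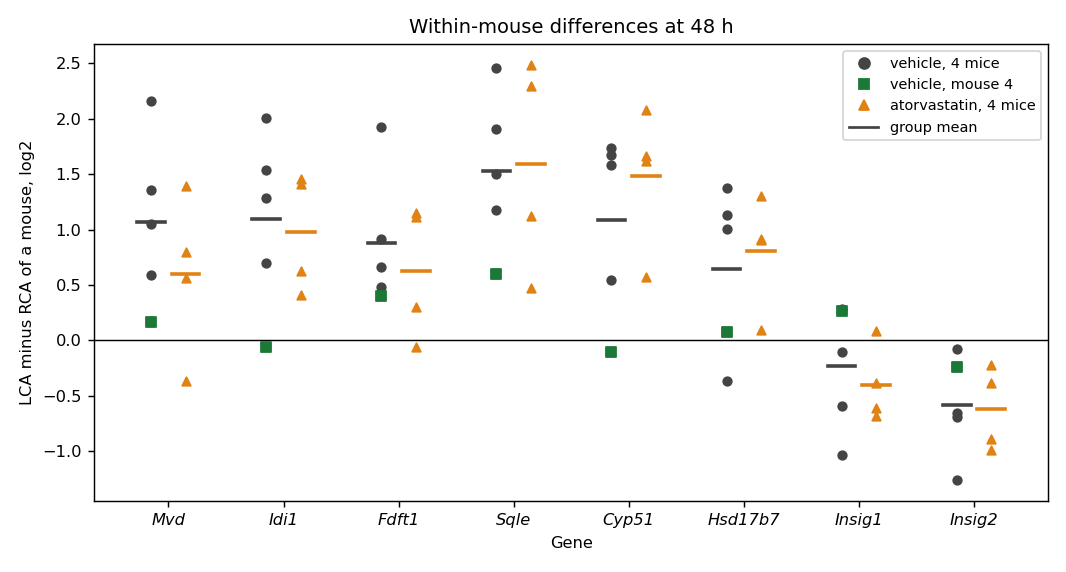
LCA minus RCA difference (log2, vertical axis) of 8 genes in each of the 9 mice at 48 h, vehicle and atorvastatin side by side, with bars at the group means and a green square for vehicle mouse 4. Sqle is above 0 in all 9 mice and Insig2 below 0 in all 9, while vehicle mouse 4 lies at -0.06 for Idi1 and -0.11 for Cyp51.

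At 2 weeks, 5 of 22 genes were called higher in the LCA and 5 lower, beside 21.9% and 21.6% of all tested genes. Their median difference was -0.07, against -0.03 over all genes. The genes on each side had changed since 48 h, with Sc5d now lower and Stard4 and Npc2 higher.

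Mvd and Cyp51 were the synthesis enzymes still higher. Mvd was higher by 0.48 (SE 0.15, adjusted p = 0.00925) in 10 of 10 mice. Cyp51 lay between 5.77 and 6.75 in the LCA (median 6.13) and between 4.91 and 6.18 in the RCA (median 5.34), and was higher by 0.74 (SE 0.19, adjusted p = 0.00167), or 1.68-fold, in 9 of 10 mice. Other Cyp51 probe sets, on low signals, gave 0.14 and 0.11. Idi1 lay between 7.38 and 8.30 in the LCA and between 7.26 and 8.24 in the RCA, which overlapped almost fully. Mvd was above the array median on 7 of 10 LCA and 1 of 10 RCA arrays, and its other probe set gave -0.04. It was not called with the mean over its probe sets.

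Sc5d, Ebp and Ggps1 were lower at 2 weeks. Sc5d lay between 5.04 and 5.76 in the LCA (median 5.59) and between 5.74 and 7.43 in the RCA (median 6.48), meeting only at the edge. Its difference was -0.997 (SE 0.19, adjusted p = 4.64e-05), a ratio of 0.501, and 9 of 10 mice were lower. Ebp, the isomerase that shifts a double bond in the sterol ring, was lower in 10 of 10 mice with a difference of -0.44 (SE 0.10, adjusted p = 0.000466). Ggps1 was lower in 10 of 10 mice with a difference of -0.49 (SE 0.07, adjusted p = 1.03e-06), and its other probe sets gave -0.05 and -0.33.

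Both Insig genes were lower in every mouse. Insig1 lay between 7.52 and 8.53 in the LCA (median 7.95) and between 8.48 and 9.26 in the RCA (median 8.93), overlapping only at 1 end. The difference was -0.95 (SE 0.12, adjusted p = 2.3e-08), a ratio of 0.518. Insig2 lay between 8.44 and 9.04 in the LCA and between 9.06 and 9.48 in the RCA, with no overlap, and differed by -0.53 (SE 0.09, adjusted p = 1.94e-05).

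In transport, Npc1, the lysosomal membrane protein that exports cholesterol, was higher by 0.42 (SE 0.14, adjusted p = 0.017) in 8 of 10 mice. Stard4 was higher by 0.30 (SE 0.11, adjusted p = 0.0259) and Npc2 by 0.19 (SE 0.07, adjusted p = 0.0295), each in 8 of 10 mice. The other Stard4 probe sets gave -0.05 and -0.09, and Stard4 was not called with the mean of its probe sets. Other Npc2 probe sets gave 0.34 and 0.36. The call for Npc1 was lost without atorvastatin mouse 7 (adjusted p = 0.0522), that for Stard4 without vehicle mouse 4 or 5 or atorvastatin mouse 6 or 7 (up to 0.0905), and that for Npc2 without vehicle mouse 2 or 4 or atorvastatin mouse 6 or 7 (up to 0.0776). Without the pairing of arteries Stard4 was not called at 48 h or 2 weeks. At this time the mean level of the macrophage list was 7.91 to 8.71 in the LCA and 3.47 to 5.75 in the RCA, and that of the smooth muscle list 5.61 to 9.30 and 5.17 to 6.09. Their part in these differences was not tested.

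The change over time was tested itself. The F test of LCA minus RCA over the 4 times called 13 of 22 genes, Sqle among them, beside 55.6% of all tested genes. From 24 h to 48 h, 11 of 22 were called (43.1% of all genes), 5 upward and 6 downward. Sqle moved by 1.89, Sc5d by 0.93, Mvd by 0.85, Hsd17b7 by 0.76 and Cyp51 by 0.73. Over the same step Insig1 moved by -1.28, Insig2 by -1.01, Lss by -0.82, Stard4 by -0.80, Ggps1 by -0.52 and Npc2 by -0.39. By the probe sets used, Lss and Ggps1 moved the same way as the Insig pair. The other 5 enzymes called moved the opposite way. Other Ggps1 probe sets went from -0.18 to -0.01 and from 0.02 to 0.19, against the one used. Those of Sc5d, on low signals, also went against it, from 0.14 to -0.31 and from 0.16 to 0.01. Lss was above the array median on 4 arrays only, and its 48 h mean includes atorvastatin mouse 9 at -2.198. Sqle is given as a description here too.

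The Insig1 step held a change in each artery. The LCA level of Insig1 changed by -0.77 (SE 0.14, adjusted p = 3.47e-05) while its RCA level rose by 0.51. The LCA mean of Sqle was 3.48 at 24 h and 4.91 at 48 h, the group that brought it over the filter, and its RCA mean was 3.81 and 3.35. Mvd rose by 0.88 (SE 0.18, adjusted p = 0.000203) and Cyp51 by 0.74 (SE 0.21, adjusted p = 0.00452) in the LCA. Idi1 there changed by 0.44 (SE 0.20, adjusted p = 0.0623).

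From 48 h to 2 weeks 8 of 22 genes were called (19.9% of all genes). Stard4 rose by 0.59 and Npc2 by 0.38. The other Stard4 probe sets went from 0.08 to -0.05 and from -0.42 to -0.09, so they did not share a direction. Sc5d changed by -1.47, Idi1 and Sqle each by -1.10, Hsd17b7 by -0.92, Insig1 by -0.63 and Ebp by -0.42. Sqle is again a description only. Idi1 lost its excess in the LCA, where its level changed by -1.26 (SE 0.20, adjusted p = 1.09e-05), while its RCA level changed by -0.16 (SE 0.16, adjusted p = 0.771).

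Within treatments the same comparison has fewer mice. In vehicle mice 0, 4, 8 and 7 of 22 genes were called at 12 h, 24 h, 48 h and 2 weeks, beside 2.39%, 14.3%, 36.2% and 27.8% of all tested genes. In atorvastatin mice 0, 5, 6 and 6 were called, beside 1.68%, 13.1%, 31.8% and 29.9%. Sqle is counted in both treatments at 48 h and in atorvastatin mice at 24 h, as a description only. At 12 h limma gave 3 genes in vehicle and 1 in atorvastatin mice at an unadjusted p under 0.05. Insig1, Idi1 and Stard4 were called higher at 24 h in each treatment. Insig2 was called higher in atorvastatin mice alone, Sqle lower in atorvastatin mice alone (-0.85) and Ebp lower in vehicle mice alone (-0.46). At 24 h Sqle was above the array median on 0 of 10 LCA and 1 of 10 RCA arrays, so its value is a description only. That RCA, of an atorvastatin mouse, was at 6.01, and the Sqle difference within mice reached -1.99.

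At 48 h Idi1, Cyp51 and Hsd17b7 were called higher and Ggps1 and Insig2 lower in each treatment. Sqle was also past the threshold in each, as a description only, and Mvd and Fdft1 were called in vehicle mice alone. At 2 weeks Ggps1, Ebp, Sc5d, Insig1 and Insig2 were called lower in each treatment. Cyp51 and Npc2 were called higher in vehicle mice alone and Npc1 in atorvastatin mice alone. A gene called in 1 treatment is not thereby shown to differ between treatments, and that difference was tested.

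The effect of atorvastatin on LCA minus RCA was called by limma for 0 of 22 genes at every time and over the 4 times. The share of all tested genes called was 0.00882% at 12 h, 0% at 24 h and at 48 h, 0.0176% at 2 weeks and 0% over the times. At an unadjusted p under 0.05 there were 1, 3, 0 and 1 of the 22 at the 4 times and 0 over the times. For Npc1 at 2 weeks the LCA minus RCA difference was 0.04 in vehicle mice and 0.80 in atorvastatin mice, and the difference between them was 0.75 (adjusted p = 0.978).

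A statin that lowers sterols inside cells is known to raise SREBP targets, so the atorvastatin comparison asks whether these genes differed with the drug in either artery. By limma, 0 of 22 genes were called for the LCA at 12 h, 24 h, 48 h or 2 weeks, or over the times, as for 0% of all tested genes in each. In the RCA 0 of 22 were called at each time, beside 0.0441% of all genes at 12 h, 0% at 24 h and 48 h, 0.00882% at 2 weeks and 0.0176% over the times. With the mean of both arteries over the times 0 of 22 were called, as for 0% of all genes.

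Counts at an unadjusted p under 0.05 in the LCA were 1, 0, 0 and 0 of 22 at the 4 times and 0 over the times, and in the RCA 2, 1, 1 and 2 and 1 over the times. Over all tested genes the same counts were 690 in the LCA and 1227 in the RCA over the times. The mean of both arteries over the times gave 0 of the 22.

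Averaged over the 4 times, all atorvastatin minus vehicle differences were small. In the LCA they ran from -0.21 for Idi1 to 0.17 for Ebp, with 5 genes higher and 17 lower and a median of -0.04, against -0.02 over all genes. In the RCA they ran from -0.19 for Fntb to 0.22 for Sqle, with 9 higher and 13 lower and a median of -0.04, against 0.00 over all genes. The 95% intervals of all 22 lay within -0.53 to 0.43 in the LCA and within -0.47 to 0.57 in the RCA. A doubling, a difference of 1, lies outside each of these intervals over the times. Intervals at single times were wider, with upper bounds up to 1.20 in the LCA at 12 h and 1.58 in the RCA at 24 h.

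Values for 4 SREBP targets follow. Idi1 differed by -0.21 in the LCA (95% interval -0.48 to 0.07) and by -0.15 in the RCA (-0.37 to 0.07). Insig1 differed by -0.07 in the LCA (-0.27 to 0.12) and by 0.04 in the RCA (-0.09 to 0.17). Cyp51 differed by -0.10 in the LCA (-0.39 to 0.20) and by -0.12 in the RCA (-0.36 to 0.12), and Stard4 by -0.14 (-0.38 to 0.10) and -0.12 (-0.24 to 0.00). Stard4 was lower under atorvastatin in 8 of 8 comparisons of artery and time, none of them called. The arteries at each time come from the same mice, and the smallest of these differences was -0.003.

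**Figure D4:**
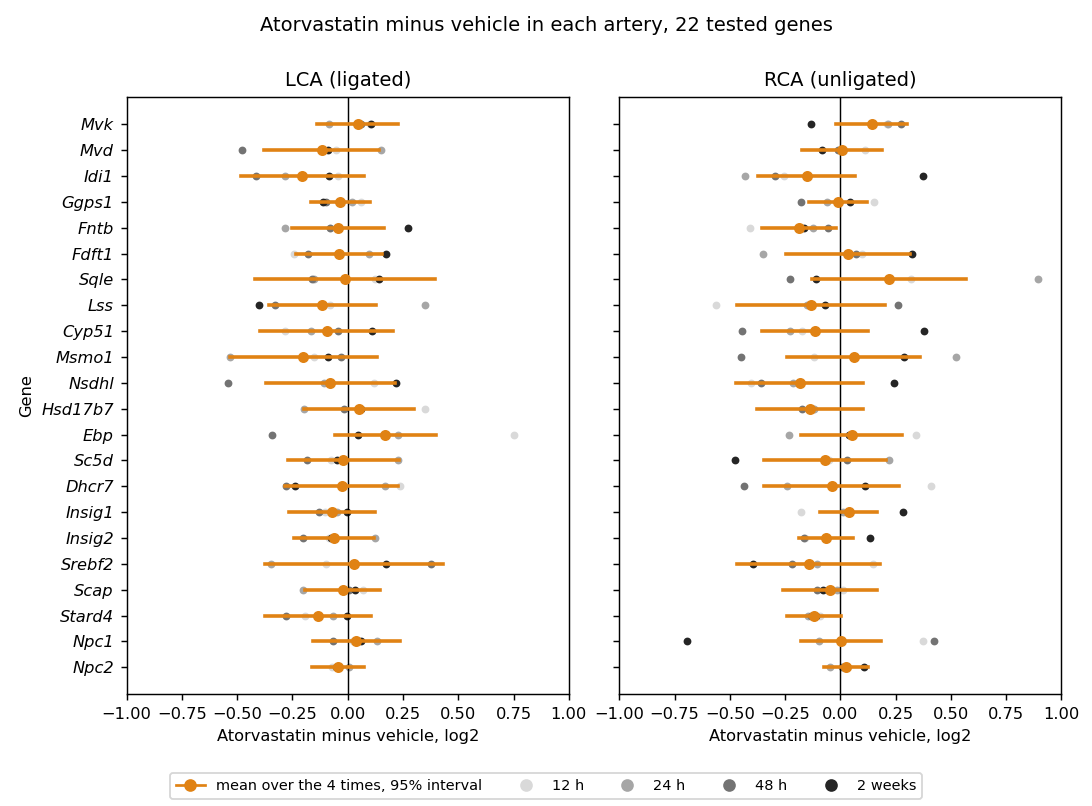
Atorvastatin minus vehicle (log2, horizontal axis) for each tested gene, LCA in the left panel and RCA in the right; grey dots are the 4 times, orange points the mean over the times with its 95% interval. Every orange interval lies between -0.53 and 0.57, and the grey dots farthest from 0 are Sqle and Npc1 in the RCA and Ebp in the LCA.

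The largest single differences under atorvastatin were not called. Ebp in the LCA at 12 h was 6.53, 6.39, 5.56, 6.89 and 6.91 in the vehicle mice and 6.73, 7.43, 7.11, 7.12 and 7.63 in the atorvastatin mice. The atorvastatin values were mostly higher, with 1 inside the vehicle range, and vehicle mouse 3 was the lowest of all. The difference was 0.75 (SE 0.22, 95% interval 0.30 to 1.20, adjusted p = 0.561).

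Npc1 in the RCA at 2 weeks was 7.32, 7.33, 7.10, 7.17 and 7.04 in the vehicle mice and 6.61, 6.43, 6.75, 6.25 and 6.45 in the atorvastatin mice. These 2 groups did not overlap. The difference was -0.69 (SE 0.17, 95% interval -1.05 to -0.34, adjusted p = 0.478). These RCAs include those of atorvastatin mice 8 and 9 and vehicle mouse 3, with the high adipocyte or muscle lists. In the same artery Npc1 differed by 0.37 at 12 h and by 0.42 at 48 h, in the opposite direction.

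Weighting arrays by their fit, an alternative setting, brought both under the threshold. Ebp in the LCA at 12 h then differed by 0.87 (adjusted p = 0.0465) and Npc1 by -0.71 (adjusted p = 0.0496) in the RCA at 2 weeks. With that setting 1.34% and 0.0353% of all tested genes were called in these comparisons. Sqle in the RCA at 24 h was 2.84, 3.75, 3.33, 3.70 and 3.21 in the vehicle mice and 3.33, 4.43, 6.01, 4.16 and 3.38 in the atorvastatin mice. Of the atorvastatin values 3 lay above all vehicle values, and the difference was 0.90 (SE 0.34, adjusted p = 0.9998).

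Other genes of the pathway were counted from lists, with called genes among the tested and up to 4 examples by size. Over all tested genes 3.61%, 15.7%, 26.6% and 21.9% were higher in the LCA at the 4 times and 2.59%, 13%, 23.1% and 21.6% lower, so many of the counts below are near that background. Of 13 fatty acid synthesis genes, SREBP targets of a related branch, 0 were called at 12 h by limma. At 24 h 4 were higher in the LCA and 1 lower, among them Acss2 (0.80), which makes acetyl-CoA, and Fasn (0.52), the fatty acid synthase. At 48 h 2 were higher and 5 lower, with the elongase Elovl6 at 1.58 and the desaturase Scd1 at -1.02. At 2 weeks 1 was higher and 7 lower, led by Scd1 at -1.72, Mid1ip1 at -1.39 and Acss2 at -1.12. So Acss2 was higher in the LCA at 24 h and lower at 48 h (-0.80) and 2 weeks.

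Of 9 tested genes of the LXR pathway and cholesterol efflux, which dispose of sterol, 2 were higher at 12 h and 0 lower. At 24 h 2 were higher and 2 lower, with Mylip, a ubiquitin ligase induced by LXR, at 1.75 and the lipid transfer protein Pltp at -1.13. At 48 h 1 was higher and 3 lower, with Pltp at -1.05 and Mylip at -0.81. At 2 weeks 3 were higher and 3 lower, with the exporter Abcg1 at 1.11.

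Of 7 tested genes of sterol ester, oxysterol and lysosomal handling, 0 were called at 12 h, 2 were higher at 24 h, 2 higher and 1 lower at 48 h, and 3 higher and 2 lower at 2 weeks. Ch25h, which makes 25-hydroxycholesterol, was higher by 2.76 at 48 h, and Cyp27a1, which makes 27-hydroxycholesterol, by 1.27 at 2 weeks. Plin2, a lipid droplet coat protein, was higher by 0.57 at 24 h, 0.56 at 48 h and 0.68 at 2 weeks.

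Of 13 tested genes of sterol transport and lipoprotein uptake, 2 were higher at 12 h, 1 at 24 h, 4 at 48 h and 3 at 2 weeks, and 0, 0, 4 and 2 were lower. Gramd1b, which moves cholesterol from the plasma membrane to the endoplasmic reticulum, was higher by 1.60 at 24 h and differed by -0.85 at 48 h. The lipoprotein receptors Lrp8 and Lrp1 were higher by 1.80 and 1.28 at 48 h, and Lrp1 by 3.37 at 2 weeks, when macrophage and smooth muscle markers were also higher.

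Of 4 tested genes of SREBP processing, 0 were called at 12 h. At 24 h the site proteases Mbtps2 (0.48) and Mbtps1 (0.24) were higher, at 48 h Mbtps1 was lower (-0.28) and at 2 weeks Fbxw7, which marks SREBP for breakdown, was lower (-0.59). Of 20 tested genes of prenylation and other isoprenoid use, 1, 1, 7 and 3 were higher at the 4 times and 2, 5, 3 and 3 lower. The prenylated GTPase Rhoc was at -1.76 at 24 h, and at 48 h Nus1, a subunit of the dolichol-making enzyme, was at 1.13 and Rabggtb, a subunit of the enzyme that anchors Rab proteins, at 0.87. Over the 4 times atorvastatin gave 0 called genes by limma in each of these lists, in either artery.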

How the data were processed

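The authors' deposited values are log2 expression signals of 78 Affymetrix arrays, made with RMA per the submitters' processing notes, with no version or chip definition named in them. RMA gives all arrays a common distribution and compresses low signals. Values ran from 1.79 to 13.24 and were used as deposited. Of 45118 probe sets, the platform annotation gave 1 symbol to 28898, several to 551 and none to 15588, and 81 were controls. Only the first kind was named.

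Per the labels, the number in each title joins the arteries of a mouse, so LCA minus RCA was fitted within mice with limma 3.58.1 (statmod 1.5.0, R 4.3.3) over 8 mouse groups sharing 1 variance; single arteries were fitted in the same way. Genes over the median of 4 or more arrays were tested, with Benjamini-Hochberg adjustment over 11344 genes and a threshold of 0.05. The fits were tested on simulated data. The simulated noise was independent between arrays, so the pairing of arteries was not tested by it. Deviations of the 2 arteries of a mouse from their group means correlated from -0.34 to 0.51 over 39 mice (median 0.09). Mice are separate animals, and the number of arrays limits the precision. Extraction and profiling ran in 4 batches per the labels, which do not assign samples to them, so batch and group cannot be told apart.

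The listed genes, the pathway lists and the markers were chosen with earlier results of these data known. All 28 genes are accounted for; those called in any comparison are described with values, and up to 4 called genes per other list are named by size of change. Printing promoters was planned for called genes holding a sterol element. No called gene with an entry matched either pattern searched, which does not show that these genes lack such an element. So 5 promoters were chosen after their values were seen. Alternatives were no filter, a filter of 20 arrays, probe set means, quantile normalisation once more, a trended robust variance, array weights, the number in the title code as a random block, no replicate block, fits to a comparison's mice alone, and each mouse left out. Some genes of this pathway are not reported here.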

Additional observations from a re-analysis of the deposited data

Results flagged for a closer look

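The LCA minus RCA difference of 1 mouse lay far from the others of its group in 10 of 176 groups of 4 or 5 mice, and chance alone gives about 1 in 20 groups. Idi1 was at 1.168 in vehicle mouse 5 at 24 h (the others 0.43 to 0.586) and at -0.448 in vehicle mouse 2 at 2 weeks (0.189 to 0.439). Lss was at -1.342 in atorvastatin mouse 9 at 12 h (0.546 to 1.15) and at -2.198 in atorvastatin mouse 9 at 48 h (-0.194 to 0.119), on levels under the array median. Msmo1 was at -1.325 in atorvastatin mouse 8 at 2 weeks (-0.026 to 0.49), the mouse whose RCA had the highest adipocyte list. Nsdhl was at -0.899 in vehicle mouse 2 at 24 h (-0.056 to 0.26), and in the same mouse Npc2 was at -0.058 (0.205 to 0.254). Hsd17b7 was at -1.576 in vehicle mouse 1 at 12 h (-0.377 to -0.09). Insig1 was at 0.024 (0.499 to 0.675) and Insig2 at -0.296 (0.196 to 0.384) in atorvastatin mouse 9 at 12 h, the mouse that also stood apart for Lss. Mice of 12 h and 48 h with the same number are different animals.

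The LCA minus RCA difference itself differed between the 4 times for 13 of 22 genes by the limma F test. The adjusted p was 1.42e-10 for Insig1, 9.57e-08 for Insig2, 5.44e-06 for Ggps1, 1.91e-05 for Sqle and 0.000146 for Idi1. It was 0.000348 for Sc5d, 0.000639 for Stard4, 0.00124 for Hsd17b7, 0.00127 for Mvd and 0.00579 for Npc2. Cyp51 had 0.0121, Ebp 0.0278 and Lss 0.0408. Sqle is a description here, since 5 of its 7 arrays above the array median are LCA arrays at 48 h. Insig1 and Insig2 were higher in the LCA of 10 of 10 mice at 24 h and lower in 10 of 10 at 2 weeks.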

How the results depend on the processing

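Of 298 recomputed counts of called genes, 287 stayed within 1.5 times the reported count, and of 636 recomputed values of called genes 571 kept their call, 65 lost it and 0 changed direction. Alternative settings lost 16 of 288 calls, 7 of them with the mean of a gene's probe sets, and leaving out a mouse lost 49 of 348. A gene that a setting no longer tested was not counted as lost. Lss at 24 h and Sqle and Hsd17b7 at 48 h were thus recomputed in 8 alternative settings each. Other genes called between the arteries had 9. Counts under other settings below stand without the share of all genes called, unless a percentage is given, so they describe the settings only. With probe set means 2 genes were called at 12 h (1 reported) and 7 at 48 h (12 reported). With array weights the counts in atorvastatin mice were 1 at 12 h, 13 at 48 h and 10 at 2 weeks. Reported were 0, 6 and 6, and the share of all genes called under array weights is not given for them. Atorvastatin against vehicle then gave 1 in the LCA at 12 h (1.34% of all tested genes) and 1 in the RCA at 2 weeks (0.0353%). Fitted to a comparison's mice alone, 4 were called in vehicle and 0 in atorvastatin mice at 48 h (8 and 6 reported). Quantile normalisation once more gave 10 in the RCA F test (6 reported). Without the replicate block (no pairing of the arteries of a mouse), 1 gene was called in vehicle mice at 24 h (4 reported), and over both treatments 7, 11 and 9 at 24 h, 48 h and 2 weeks. Leaving out 1 mouse gave 1 to 1 at 12 h, 4 to 7 at 24 h (4 without atorvastatin mouse 8), 8 to 13 at 48 h and 7 to 12 at 2 weeks. In vehicle mice it gave 1 to 3 at 24 h (1 without mouse 3, 2 without mouse 2 or 5), 6 to 9 at 48 h and 4 to 6 at 2 weeks (4 without mouse 4). In atorvastatin mice it gave 2 to 4 at 24 h (3 without mouse 7, 2 without mouse 8 or 10), 4 to 9 at 48 h and 5 to 6 at 2 weeks. The F tests gave 11 to 14 for LCA minus RCA, 14 to 18 for the LCA and 4 to 11 for the RCA (11 without vehicle mouse 5 of 12 h), and each atorvastatin comparison gave 0 to 0. The random block of the title number had consensus correlations from -0.01 to 0.05. Genes under the array median, Hmgcs1, Fdps and Tm7sf2, could not be assessed, and small changes of Sqle and Lss lie in the compressed low range. Mvd and Nsdhl lie near the array median.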
